A study of Mus musculus with 46 samples.

Results

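The response of mouse colon to imeglimin after 4 weeks of exposure was set against its response 6 h after a single dose, gene by gene. The quantity reported is a difference of differences on the log2 scale, imeglimin minus control in chronic colon less imeglimin minus control in acute colon, and is called the interaction below. It used 12 of the 46 samples of the series, chosen by their labels. These were 3 chronic imeglimin libraries, 3 chronic control libraries, 3 acute imeglimin libraries and 3 acute control libraries. Another 6 colon libraries, 3 chronic and 3 acute, came from mice given metformin at the same doses and times. They entered the fit for the estimate of spread, the filter on low counts and the scaling, and no contrast used them. Each SE and p of the main colon fit therefore rests on 18 libraries. All were bulk RNA-seq of colon from male C57BL/6J mice. Chronic imeglimin was given in the drinking water at 3 mg/mL for 4 weeks and acute imeglimin as 600 mg/kg by mouth, with colon taken at 6 h. The labels give the controls no more than the word control and their time, and give neither ages nor the stretch of colon taken. Nothing in them says that the 3 libraries of a group are separate animals, and the p-values below reflect spread among libraries that may be technical.

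Imeglimin is an oral glucose-lowering drug of the tetrahydrotriazine class, related to the biguanide metformin, and is known to act on mitochondria. Cells under mitochondrial or amino acid stress can start the integrated stress response, in which the transcription factor ATF4 raises amino acid transporters and stress hormones such as GDF15. Cells short of sterol activate SREBP2, which raises the enzymes of cholesterol synthesis. Cells short of iron keep the transferrin receptor transcript stable through the iron regulatory proteins.

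The 12 libraries held 31606797 to 44373717 counted reads. The chronic control 3 library stood apart, with 6 pancreatic acinar markers summing to 7720 CPM (counts scaled to the library total), against 200 to 239 CPM in the other 5 chronic libraries and 50.1 to 58.7 CPM in the acute ones. The acute control 1 library had 30.0 CPM over 6 Paneth cell markers, against 5.91 to 9.22 CPM in the other 5 acute libraries. Goblet cell markers summed to 16108 to 19906 CPM in chronic imeglimin, 13208 to 16696 CPM in chronic control, 23516 to 25230 CPM in acute imeglimin and 19383 to 20944 CPM in acute control libraries, without overlap in acute colon. Fibroblast markers summed to 1506 to 1822 CPM in chronic imeglimin, 1891 to 2373 CPM in chronic control, 1459 to 1807 CPM in acute imeglimin and 1897 to 2275 CPM in acute control libraries, lower with imeglimin without overlap in both. Of the 17 marker lists, imeglimin and control sums were without overlap for 2 in chronic colon (fibroblast and neutrophil, both lower with imeglimin) and for 5 in acute colon (goblet cell and red blood cell higher, fibroblast, mast cell and Paneth cell lower with imeglimin). In chronic colon 0 of 20 fibroblast and 0 of 3 neutrophil markers were called lower, beside 4.30% of all genes. Of the pancreatic acinar markers, whose sums overlapped, 6 of 6 were called lower there. Their sums were 228, 202 and 7720 CPM in chronic control 1, 2 and 3. In acute colon 5 of 20 fibroblast, 1 of 5 mast cell and 3 of 6 Paneth cell markers were called lower, beside 16.9%. There 2 of 10 goblet cell and 0 of 5 red blood cell markers were called higher, beside 17.8%. With 3 libraries a group, sums can be without overlap by spread alone, and that share was not computed. The part of these cell types in the interactions was not tested. In bulk tissue, fewer cells of a type and less RNA per cell cannot be told apart.

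The control libraries of the 2 experiments also differed in genes that mark position along the gut. The posterior homeobox gene Hoxb13 had 393, 309 and 364 CPM in chronic controls, against 0.343, 0 and 2.00 CPM in acute controls. Hoxa13, also posterior, had 26.9, 29.4 and 28.6 CPM in chronic controls and 2.69, 2.77 and 6.23 CPM in acute controls. The more anterior Hoxb6 had 1.47, 0.833 and 1.41 CPM in chronic controls and 58.9, 67.2 and 73.8 CPM in acute controls, the opposite order without overlap. Car1, a carbonic anhydrase of surface colonocytes, had 404, 749 and 378 CPM in chronic controls and 10120, 11140 and 8806 CPM in acute controls. Of 12267 genes averaging 5 CPM or more in either control group, 638 stood more than 2-fold higher in chronic controls and 705 more than 2-fold lower, by mean CPM with 0.5 added. Such differences held for 10.9% of these genes and for 9.13% of the 2759 among them with a called interaction. Among called interactions, the share was 5.84% where the acute effect alone was called and 23.8% where the chronic effect alone was. The part of control level in these calls was not tested. Length and route of exposure, the experiment and the stretch of colon therefore cannot be told apart in any interaction given here. Hoxb13, Hoxa13, Hoxb6 and Car1 were picked after their values were seen, and the Hoxb13 and Hoxb6 interactions were not called (edgeR adjusted p = 0.828 and 0.667).

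The imeglimin effect differed between chronic and acute colon for 3154 of 19369 genes (16.3%) at an adjusted p under 0.05 in edgeR's quasi-likelihood test with Benjamini-Hochberg adjustment. It was higher in chronic than in acute colon for 1689 genes (8.72%) and lower for 1465 (7.56%). In 2250 of the 3154 genes (71.3%) the acute effect alone passed its own test, and in 434 (13.8%) the chronic effect alone did. Both effects were called in the same direction for 115 genes, of which the acute effect was the larger for 78 genes higher and 25 genes lower with imeglimin, and the chronic effect for 11 higher and 1 lower. Both were called in opposite directions, that is reversed, for 167 genes (0.862%). The remaining 188 genes differed with neither effect called. The acute effect was the larger in size for 2503 of the 3154 genes (79.4%).

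**Figure D1:**
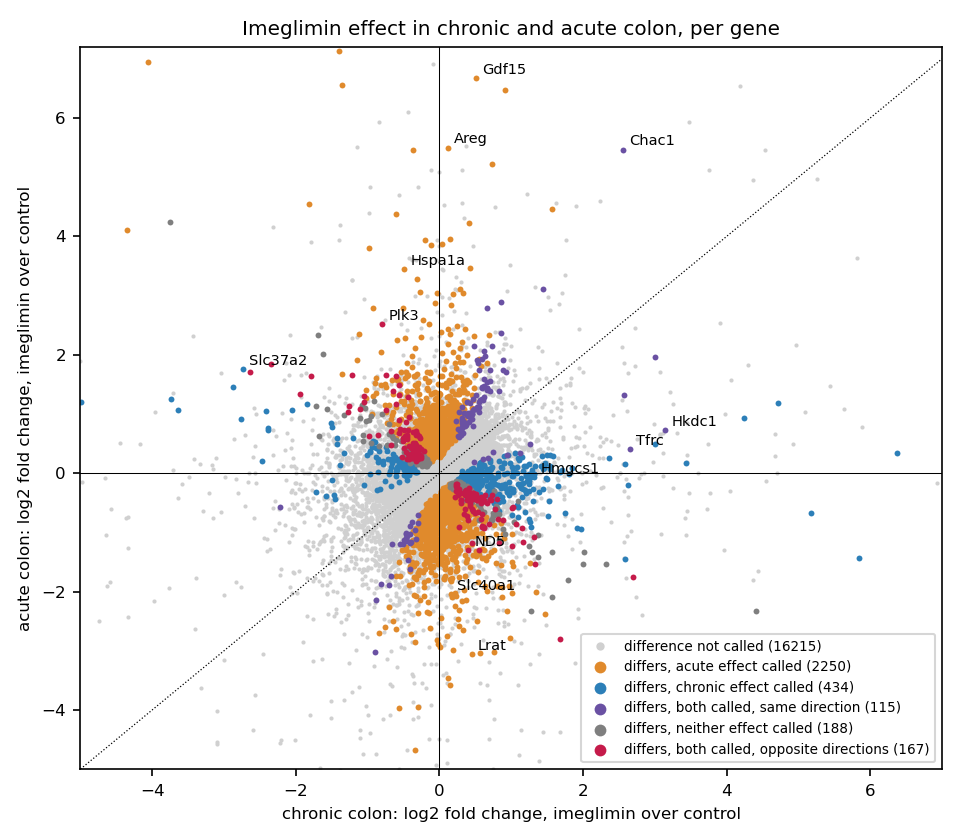
Each point is 1 of 19369 genes, with its log2 fold change for imeglimin over control in chronic colon on the x axis and in acute colon on the y axis, coloured by how the 2 effects compare; the dotted line marks equal effects and 100 genes lie outside the axes. Genes called as different lie mostly along the vertical axis, with the 167 reversed genes in the upper left and lower right.

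Among the gene lists with 20 or more genes tested, the lowest median interactions were in stress genes. The median interaction of all genes tested was 0.039, and their median effect was -0.007 in chronic and -0.053 in acute colon. The median interaction was -1.137 over 29 genes of the integrated stress response. It was -0.823 over 32 immediate early genes and MAP kinase phosphatases and -0.756 over 20 cytosolic heat shock chaperones. The highest were 0.873 over 44 interferon-induced genes and 0.837 over 26 genes of cholesterol synthesis and uptake. The nuclear-encoded respiratory chain had nearly equal effects by its medians. Over 36 complex I subunits the median effect was 0.516 in chronic and 0.534 in acute colon, with 1 interaction called, beside 16.3% of all genes. Over 37 subunits of complexes II to V it was 0.488 in chronic and 0.527 in acute colon, again with 1 called. No member of 12 MHC class II genes or of 20 glutathione S-transferases was called, beside the same share of all genes.

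**Figure D2:**
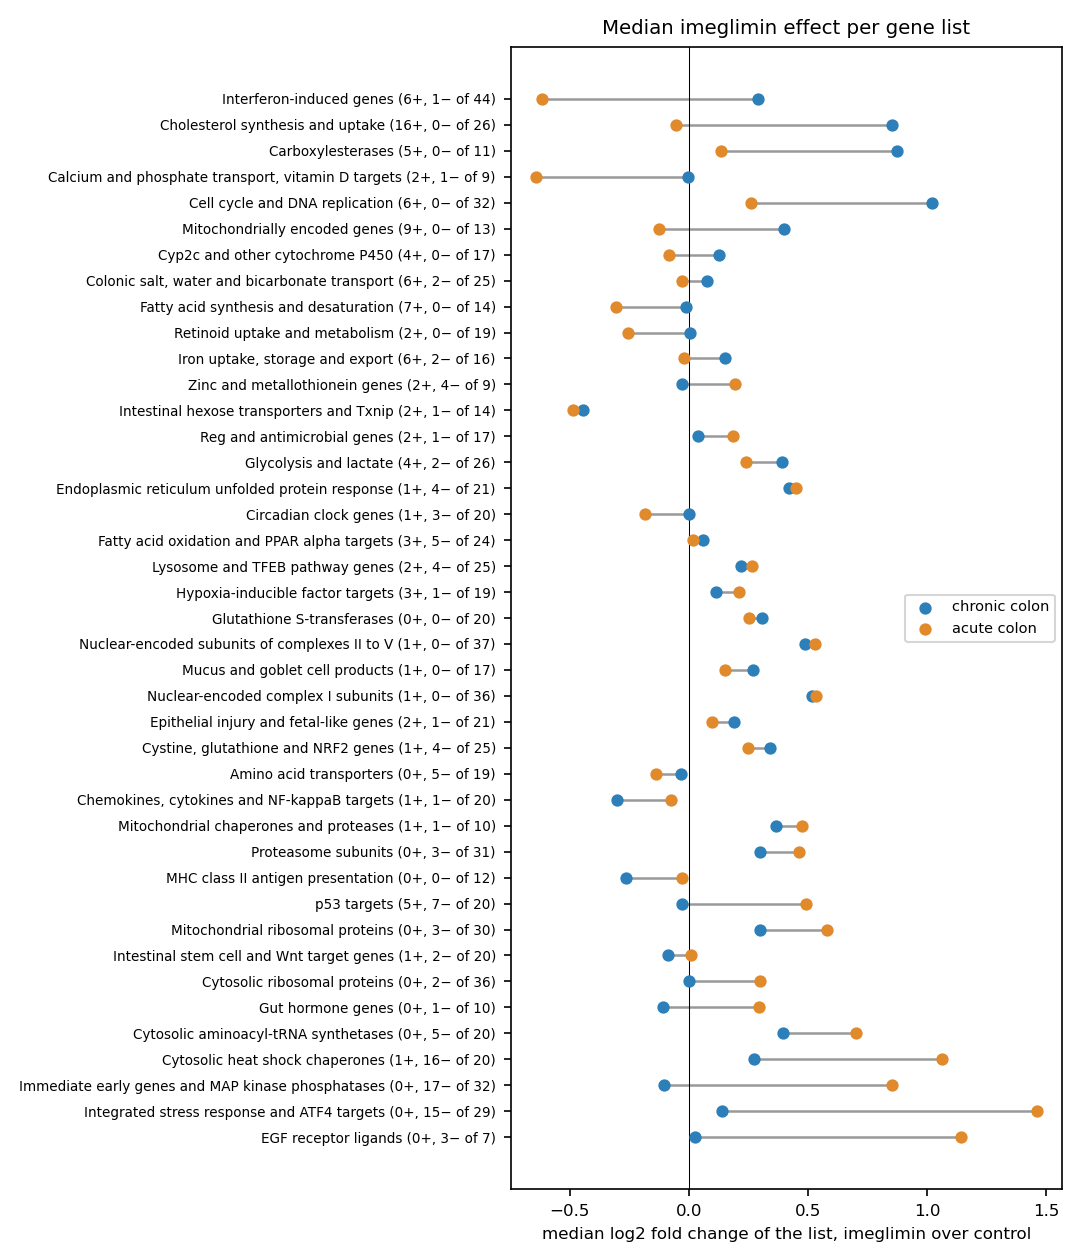
Points give the median log2 fold change, imeglimin over control, of each gene list in chronic colon (blue) and acute colon (orange), and the label of each list gives how many interactions were called higher (+) and lower (−) in chronic colon out of the genes tested. The integrated stress response stands at 0.139 in chronic and 1.46 in acute colon, and cholesterol synthesis at 0.85 in chronic and -0.054 in acute colon.

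Genes of the integrated stress response were raised by imeglimin mainly in acute colon. Of 29 measured members 15 had a lower effect in chronic than in acute colon and 0 a higher one, beside 7.56% of all genes called in that direction. In chronic colon 5 of the 29 rose and 0 fell, beside 8.43% of all genes called higher and 4.30% called lower there. In acute colon 22 rose and 1 fell, beside 17.8% called higher and 16.9% lower. The count of 15 was 14 without chronic control 3 and 14 to 16 without any 1 of the 12 libraries.

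Gdf15, a stress hormone that lowers food intake, had 10.8, 5.47 and 12.0 CPM in chronic imeglimin libraries, against 7.51, 5.89 and 6.36 CPM in chronic controls. In acute colon it had 71.4, 104 and 79.5 CPM with imeglimin, against 0.486, 1.11 and 0.891 CPM in controls. The chronic groups overlapped, the acute groups were far apart, and acute controls lay below every chronic library. Its log2 fold change was 0.51 ± 0.26 in chronic colon (edgeR adjusted p = 0.229) and 6.67 ± 0.34 in acute colon (edgeR adjusted p = 4.08e-09), an interaction of -6.16 ± 0.42 (edgeR adjusted p = 1.51e-06). Chac1, which degrades glutathione, differed in another way, since it rose in both. It had 2.57, 2.80 and 8.16 CPM in chronic imeglimin libraries, against 0.597, 0.718 and 0.980 CPM in chronic controls. It had 28.4, 51.6 and 45.8 CPM in acute imeglimin libraries, against 0.687, 1.08 and 1.06 CPM in acute controls. Every imeglimin library lay above its controls, and control levels were alike in the 2 experiments. The log2 fold change was 2.56 ± 0.41 in chronic and 5.47 ± 0.42 in acute colon, with an interaction of -2.91 ± 0.58 (edgeR adjusted p = 0.00316).

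Of 19 measured amino acid transporters 5 had a lower effect in chronic colon and 0 a higher one, beside 7.56% and 8.72% of all genes. In chronic colon 0 of the 19 rose and 3 fell, beside 8.43% and 4.30% of all genes. In acute colon 5 rose and 2 fell, beside 17.8% and 16.9%. Slc3a2, the heavy chain of several amino acid exchangers, had 62.5, 62.1 and 85.3 CPM in chronic imeglimin libraries, against 72.2, 60.0 and 73.4 CPM in chronic controls. It had 179, 246 and 220 CPM in acute imeglimin libraries, against 53.7, 49.8 and 53.4 CPM in acute controls. Only the acute groups were apart, and the interaction was -2.01 ± 0.19 (edgeR adjusted p = 1.78e-05). The light chains Slc7a11, which imports cystine, and Slc7a5, which imports large neutral amino acids, had interactions of -2.82 ± 0.43 and -1.55 ± 0.26 (edgeR adjusted p = 0.000489 and 0.000953). Atf4 itself, named with Slc7a5, Mthfd2 and Ddit3 after its values were seen, had a log2 fold change of -0.15 ± 0.12 in chronic and 1.53 ± 0.12 in acute colon, an interaction of -1.69 ± 0.17 (edgeR adjusted p = 2.16e-05). The mitochondrial folate enzyme Mthfd2 rose in both, by 1.44 ± 0.28 in chronic and 3.11 ± 0.27 in acute colon, and still differed (-1.67 ± 0.38, edgeR adjusted p = 0.00674). Ddit3, which encodes the stress factor CHOP, stood at 0.057 ± 0.19 in chronic and 1.75 ± 0.19 in acute colon (-1.70 ± 0.26, edgeR adjusted p = 0.0006). Of 20 cytosolic aminoacyl-tRNA synthetases 5 had a lower effect in chronic colon, beside 7.56% of all genes, and 8 without acute imeglimin 1. Yars, one of the 5, rose by 0.62 ± 0.13 in chronic and 1.59 ± 0.13 in acute colon (-0.97 ± 0.18, edgeR adjusted p = 0.00231).

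The 250 bases before the transcription start of Chac1 and Slc7a11 are shown because these genes of the ATF4 program both carry a match to the ATF4 composite element TGATGNAA, searched on both strands. The matches are in capitals. The sequences are RefSeq's on build GRCm38.p6, given 5′ to 3′ on the strand of the gene, with Chac1 at chr2:119350992-119351241 (plus strand) and Slc7a11 at chr3:50443614-50443863 (minus strand).
Chac1: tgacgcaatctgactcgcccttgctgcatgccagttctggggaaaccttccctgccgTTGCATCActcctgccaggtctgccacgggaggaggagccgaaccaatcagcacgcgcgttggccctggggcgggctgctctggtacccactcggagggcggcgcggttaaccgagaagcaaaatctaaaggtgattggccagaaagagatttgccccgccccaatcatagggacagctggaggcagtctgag
Slc7a11: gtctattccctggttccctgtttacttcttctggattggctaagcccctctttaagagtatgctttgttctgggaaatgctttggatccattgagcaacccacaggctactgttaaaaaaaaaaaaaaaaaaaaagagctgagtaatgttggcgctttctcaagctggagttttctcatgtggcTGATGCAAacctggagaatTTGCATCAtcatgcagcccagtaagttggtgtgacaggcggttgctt
Of the 15 stress response genes with a called interaction 14 had a promoter entry, and 3 of these 14 held a match (Atf3, Chac1 and Slc7a11), beside 2.21% of 13736 promoters of tested genes. The match starts at base -193 from the start site in Chac1, and the 2 matches in Slc7a11 start at -66 and -47.

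Several ligands of the EGF receptor and growth factor response genes also rose in acute colon, and few rose in chronic colon. Areg, which encodes the EGF receptor ligand amphiregulin, had 20.7, 15.4 and 29.6 CPM in chronic imeglimin libraries, against 21.1, 24.5 and 15.3 CPM in chronic controls. It had 148, 215 and 199 CPM in acute imeglimin libraries, against 3.60, 2.92 and 5.78 CPM in acute controls. The chronic groups overlapped, every acute imeglimin library lay far above its controls, and acute controls lay below every chronic library. The interaction was -5.39 ± 0.39 (edgeR adjusted p = 1.51e-06). Ereg, which encodes epiregulin, had a log2 fold change of -0.27 ± 0.27 in chronic and 3.05 ± 0.28 in acute colon (-3.32 ± 0.39, edgeR adjusted p = 6.65e-05). Of 7 ligands 3 had a lower effect in chronic colon and 0 a higher one, beside 7.56% and 8.72% of all genes. The other was Hbegf, whose call was lost without chronic imeglimin 2, chronic control 1, acute imeglimin 2 or acute control 1. Of 32 immediate early genes and MAP kinase phosphatases 17 had a lower effect in chronic colon and 0 a higher one, beside the same shares. Without chronic control 3, 14 were lower. In acute colon 20 of the 32 rose, beside 17.8% of all genes, and in chronic colon 1, beside 8.43%.

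Among them Maff, a small Maf transcription factor, had 19.7, 22.6 and 23.1 CPM in chronic imeglimin libraries, against 24.5, 25.7 and 22.4 CPM in chronic controls. It had 47.5, 68.0 and 51.8 CPM in acute imeglimin libraries, against 8.10, 7.08 and 13.9 CPM in acute controls. The chronic groups overlapped, all acute imeglimin values exceeded them and all acute control values lay below them. The interaction was -2.67 ± 0.29 (edgeR adjusted p = 3.89e-05). Spry2, a feedback inhibitor of growth factor signalling, and Dusp6, a phosphatase of ERK, had interactions of -1.62 ± 0.20 and -1.84 ± 0.26 (edgeR adjusted p = 0.00013 and 0.000351). Vegfa, the endothelial growth factor, rose in acute colon by 1.71 ± 0.13 and stood at -0.18 ± 0.12 in chronic colon (-1.89 ± 0.18, edgeR adjusted p = 1.33e-05). Dusp6 was named after its values were seen.

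Cytosolic heat shock chaperones followed the same order. Of 20 measured members 16 had a lower effect in chronic colon and 1, Hspa4l, a higher one, beside 7.56% and 8.72% of all genes. The 16 came to 10 without chronic control 3, chronic control 2, chronic imeglimin 3 or acute imeglimin 3. In acute colon 16 of the 20 rose, beside 17.8% of all genes. In chronic colon 7 rose and 1 fell, beside 8.43% and 4.30%. The paired inducible HSP70 genes Hspa1a and Hspa1b are near-identical, so the split of reads between them is uncertain. Hspa1a had 75.6, 53.2 and 51.9 CPM in chronic imeglimin libraries, against 31.9, 137 and 85.6 CPM in chronic controls. It had 341, 172 and 225 CPM in acute imeglimin libraries, against 13.3, 20.2 and 33.7 CPM in acute controls. The chronic controls spread widely and enclosed the imeglimin values, while the acute groups did not overlap. The interaction was -3.94 ± 0.73 for Hspa1a and -3.60 ± 0.72 for Hspa1b (edgeR adjusted p = 0.00197 and 0.00316). The HSP70 partner Dnajb1 had -1.85 ± 0.25 and the co-chaperone Bag3 -1.35 ± 0.17 (edgeR adjusted p = 0.000234 and 0.000151). The constitutive Hspa8 rose in both, by 0.66 ± 0.13 in chronic and 1.44 ± 0.13 in acute colon (-0.78 ± 0.18, edgeR adjusted p = 0.00777). Hspa4l, an HSP110 protein named with Hspa8 after the values were seen, rose in chronic colon by 0.85 ± 0.14 and stood at 0.11 ± 0.15 in acute colon (0.74 ± 0.20, edgeR adjusted p = 0.021), a call lost without chronic control 1 or acute imeglimin 2.

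Metallothioneins, small proteins that bind zinc and copper, were raised more in acute colon. Mt1 had 132, 111 and 150 CPM in chronic imeglimin libraries, against 68.4, 67.9 and 79.8 CPM in chronic controls. It had 424, 609 and 504 CPM in acute imeglimin libraries, against 113, 86.9 and 99.3 CPM in acute controls. Mt1 rose without overlap in both experiments, by 0.86 ± 0.13 in chronic and 2.36 ± 0.14 in acute colon, with an interaction of -1.50 ± 0.18 (edgeR adjusted p = 0.000102). Mt2 rose only by its acute test (-0.35 ± 0.21 in chronic and 2.11 ± 0.22 in acute colon), and its interaction was -2.46 ± 0.30 (edgeR adjusted p = 0.000112). Of 9 zinc and metallothionein genes 4 had a lower and 2 a higher effect in chronic colon, beside 7.56% and 8.72% of all genes. The 2 came to 1 without any 1 of 7 libraries and to 3 with the replicate block. The zinc exporter Slc30a1 was lower (-0.91 ± 0.22) and the zinc importer Slc39a10 higher (0.86 ± 0.21), with edgeR adjusted p of 0.00966 and 0.0102, both named after their values were seen.

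Genes of fat handling were divided. Of 24 genes of fatty acid oxidation and PPAR alpha targets 5 had a lower and 3 a higher effect in chronic colon, beside 7.56% and 8.72% of all genes, and the 3 came to 5 without chronic imeglimin 3 and were 2 at the lowest. Plin2, which coats lipid droplets, had 159, 147 and 160 CPM in chronic imeglimin libraries, against 158, 138 and 176 CPM in chronic controls. It had 207, 214 and 263 CPM in acute imeglimin libraries, against 83.1, 80.7 and 76.5 CPM in acute controls. The chronic groups overlapped and the acute groups did not, and the interaction was -1.53 ± 0.19 (edgeR adjusted p = 0.000112). Pdk4, which restrains pyruvate oxidation, and the mitochondrial thioesterase Acot2 had interactions of -2.06 ± 0.41 and -2.08 ± 0.36 (edgeR adjusted p = 0.00315 and 0.00127). In the other direction, the peroxisomal enzyme Ehhadh had a log2 fold change of 0.057 ± 0.10 in chronic and -0.81 ± 0.10 in acute colon (0.86 ± 0.14, edgeR adjusted p = 0.000986). Ppara itself stood at 0.36 ± 0.14 in chronic and -0.67 ± 0.14 in acute colon (1.04 ± 0.20, edgeR adjusted p = 0.00244). Pdk4, Acot2 and Ppara were named after their values were seen.

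The clock repressors Cry1 and Bhlhe40 had a larger acute effect. Cry1 rose by 0.60 ± 0.15 in chronic and 1.92 ± 0.16 in acute colon (-1.32 ± 0.22, edgeR adjusted p = 0.000902). Bhlhe40 stood at 0.094 ± 0.14 in chronic and 1.46 ± 0.15 in acute colon (-1.37 ± 0.20, edgeR adjusted p = 0.000443). Of 20 clock genes 3 had a lower and 1 a higher effect in chronic colon, beside 7.56% and 8.72% of all genes, and the 1 higher call was lost without any 1 of 5 libraries. The labels give no time of day for tissue collection, and its part in these values was not tested.

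**Figure D3:**
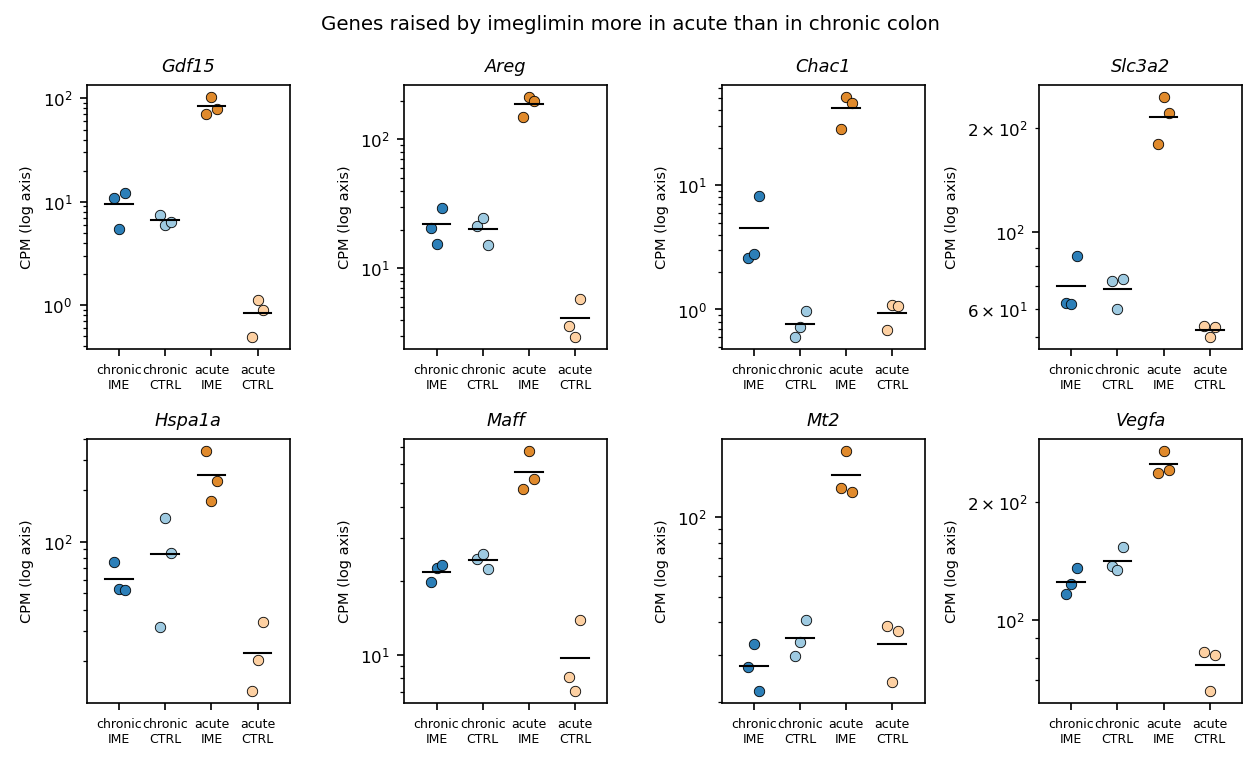
CPM on a log axis in each library of chronic imeglimin, chronic control, acute imeglimin and acute control colon (IME, imeglimin; CTRL, control; points, libraries; bars, means of 3). In all 8 genes the acute imeglimin libraries lie above their controls, and in the chronic pair the groups overlap except for Chac1.

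Iron transport genes had 6 higher and 2 lower effects in chronic colon among 16 measured, beside 8.72% and 7.56% of all genes. The 2 lower came to 0 without chronic imeglimin 2, to 1 without any 1 of 8 other libraries, and to 1 with the replicate block or with no filter. The transferrin receptor Tfrc, which brings iron into cells, had 1041, 990 and 802 CPM in chronic imeglimin libraries, against 146, 162 and 144 CPM in chronic controls. It had 158, 114 and 139 CPM in acute imeglimin libraries, against 103, 97.7 and 109 CPM in acute controls. Tfrc rose without overlap in both, and the chronic imeglimin libraries stood far above the other 9. The log2 fold change was 2.65 ± 0.13 in chronic (edgeR adjusted p = 7.81e-09) and 0.41 ± 0.12 in acute colon (edgeR adjusted p = 0.016), an interaction of 2.24 ± 0.18 (edgeR adjusted p = 3.4e-06). The iron exporter ferroportin, Slc40a1, had 242, 226 and 291 CPM in chronic imeglimin libraries, against 227, 197 and 255 CPM in chronic controls. It had 72.8, 64.9 and 80.7 CPM in acute imeglimin libraries, against 362, 297 and 238 CPM in acute controls. Only the acute groups were apart, with imeglimin lower, and the interaction was 2.20 ± 0.25 (edgeR adjusted p = 5.79e-05). The iron importer Slc11a2 and the iron regulatory protein gene Ireb2 were called lower in acute colon and were not called in chronic colon, with interactions of 0.93 ± 0.21 and 0.79 ± 0.16 (edgeR adjusted p = 0.00721 and 0.00403), both named after their values were seen.

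Cholesterol genes were raised by imeglimin in chronic colon. Of 26 measured members 16 had a higher effect in chronic colon and 0 a lower one, beside 8.72% of all genes called higher. In chronic colon 19 of the 26 rose and 0 fell, beside 8.43% and 4.30% of all genes. In acute colon 2 rose and 2 fell, beside 17.8% and 16.9%. The 16 came to 10 without chronic imeglimin 2, chronic imeglimin 3, chronic control 1 or acute control 1, to 9 without acute imeglimin 3 and to 11 without chronic control 3.

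Hmgcs1, which makes HMG-CoA for sterol synthesis, had 246, 442 and 390 CPM in chronic imeglimin libraries, against 122, 168 and 143 CPM in chronic controls. It had 316, 326 and 276 CPM in acute imeglimin libraries, against 398, 285 and 275 CPM in acute controls. The chronic groups did not overlap and the acute groups did. Its log2 fold change was 1.32 ± 0.19 in chronic and -0.061 ± 0.19 in acute colon, an interaction of 1.38 ± 0.27 (edgeR adjusted p = 0.00266). Sqle and Lss, which act on squalene and its epoxide, had interactions of 1.07 ± 0.24 and 1.28 ± 0.30 (edgeR adjusted p = 0.00692 and 0.00785). Sqle and Lss were named after their values were seen. Of 14 genes of fatty acid synthesis and desaturation 7 had a higher effect in chronic colon and 0 a lower one, beside 8.72% and 7.56% of all genes. In acute colon 5 of the 14 fell, beside 16.9% of all genes, and in chronic colon 1 rose, beside 8.43%. Among them Srebf1, a master regulator of lipid synthesis, stood at 0.26 ± 0.099 in chronic and -0.41 ± 0.099 in acute colon (0.67 ± 0.14, edgeR adjusted p = 0.00445).

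The 250 bases before the start of Hmgcs1 are shown because Hmgcs1 rose in chronic colon alone by its own tests and holds a match to the sterol regulatory element TCACNCCAC, the site of SREBP factors, in capitals. They lie at chr13:119690101-119690350 (GRCm38.p6, plus strand, RefSeq), and the match starts at base -137.
Hmgcs1: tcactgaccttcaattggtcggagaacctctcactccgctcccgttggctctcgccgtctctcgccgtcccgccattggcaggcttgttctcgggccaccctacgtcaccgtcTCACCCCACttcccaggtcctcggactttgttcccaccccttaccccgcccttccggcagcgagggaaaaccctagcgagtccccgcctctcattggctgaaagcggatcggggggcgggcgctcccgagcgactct
Of the 16 called cholesterol genes 9 had a promoter entry and 1 of these held a match, beside 1.00% of the 13736 promoters.

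Genes of hexose handling differed in both directions. Hkdc1, a hexokinase-domain protein, had 36.5, 28.0 and 66.6 CPM in chronic imeglimin libraries, against 4.48, 5.51 and 4.85 CPM in chronic controls. It had 260, 275 and 353 CPM in acute imeglimin libraries, against 198, 197 and 143 CPM in acute controls. It rose in both, and all acute libraries exceeded all chronic ones. The log2 fold change was 3.15 ± 0.29 in chronic and 0.72 ± 0.26 in acute colon (2.42 ± 0.38, edgeR adjusted p = 0.000687). Hexokinase 2, Hk2, had 340, 382 and 437 CPM in chronic imeglimin libraries, against 260, 265 and 270 CPM in chronic controls. It had 299, 297 and 381 CPM in acute imeglimin libraries, against 98.2, 82.4 and 87.8 CPM in acute controls. Hk2 rose without overlap in both, the imeglimin values of the 2 experiments overlapped, and acute controls were the lowest of the 4 groups. The interaction was -1.32 ± 0.19 (edgeR adjusted p = 0.000388). Slc37a2, a sugar phosphate carrier of the endoplasmic reticulum, had 52.9, 58.9 and 96.0 CPM in chronic imeglimin libraries, against 466, 399 and 525 CPM in chronic controls. It had 0.940, 1.80 and 13.2 CPM in acute imeglimin libraries, against 1.43, 1.36 and 1.90 CPM in acute controls. Slc37a2 fell in chronic colon without overlap and was near 1 CPM in most acute libraries, where 1 imeglimin library stood above the rest. Its interaction was -4.51 ± 0.88 (edgeR adjusted p = 0.00273) and -2.53 without that library, acute imeglimin 3.

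Carboxylesterases, which hydrolyse esters and drugs, had 5 higher and 0 lower effects in chronic colon among 11 measured, beside 8.72% and 7.56% of all genes. The family is closely related in sequence, so the split of reads between members is uncertain. Ces2e had 381, 374 and 452 CPM in chronic imeglimin libraries, against 137, 143 and 124 CPM in chronic controls. It had 431, 423 and 434 CPM in acute imeglimin libraries, against 369, 326 and 365 CPM in acute controls. The chronic groups were wide apart, and the acute groups were separate by a smaller step that missed the threshold (edgeR adjusted p = 0.0533). The interaction was 1.30 ± 0.15 for Ces2e and 1.75 ± 0.35 for Ces2b (edgeR adjusted p = 7.9e-05 and 0.00309). Tmem151a, of the class called in chronic colon alone, had 7.96, 10.4 and 14.2 CPM in chronic imeglimin libraries, against 1.95, 1.24 and 2.03 CPM in chronic controls, without overlap. Its interaction was 2.83 ± 0.42 (edgeR adjusted p = 0.000422).

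Of 32 cell cycle genes 25 rose in chronic colon, beside 8.43% of all genes, and 10 rose in acute colon, beside 17.8%. The effect was higher in chronic colon for 6 of the 32, beside 8.72% of all genes, and lower for 0. The 6 ranged from 2 without chronic imeglimin 2 to 15 without chronic control 2, and were 3 without chronic control 1, chronic control 3, acute imeglimin 1, acute imeglimin 3, acute control 1 or acute control 2 and 9 with the replicate block. Ccne2, a cyclin of DNA replication, had an interaction of 1.29 ± 0.31 and the replication factor Gins2 one of 1.14 ± 0.30 (edgeR adjusted p = 0.0106 and 0.0164).

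**Figure D4:**
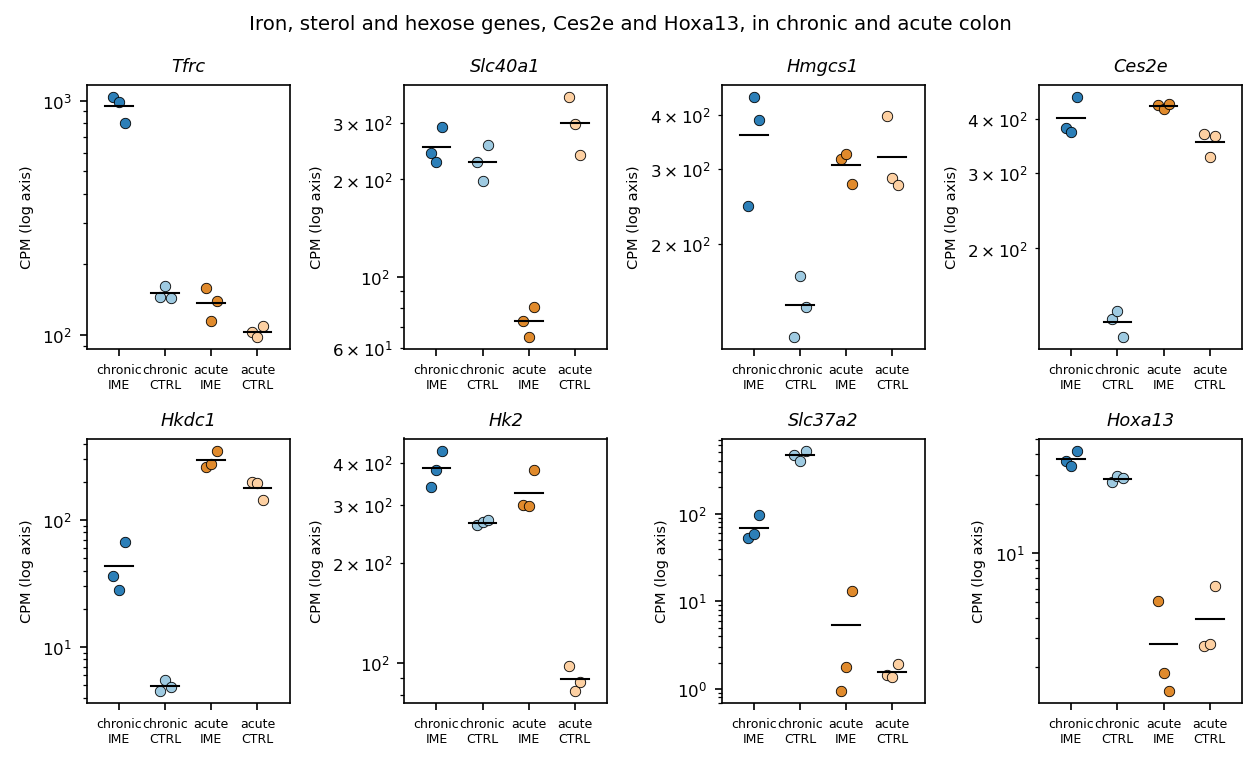
CPM on a log axis in each library of chronic imeglimin, chronic control, acute imeglimin and acute control colon (IME, imeglimin; CTRL, control; points, libraries; bars, means of 3). Tfrc, Hmgcs1 and Ces2e are raised in chronic colon, Slc40a1 is lowered in acute colon, and Hkdc1, Slc37a2 and Hoxa13 differ in level between the control groups.

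Several genes were called lower with imeglimin in acute colon and were not called in chronic colon. Of 44 interferon-induced genes 9 fell in acute colon, a share near the 16.9% of all genes, and 3 rose, beside 17.8%. The median effect of the 44 was 0.289 in chronic and -0.618 in acute colon. The effect was higher in chronic colon for 6 of the 44, beside 8.72% of all genes, and lower for 1. The 6 came to 3 without chronic imeglimin 3, chronic control 2, acute imeglimin 3 or acute control 2, to 11 without chronic imeglimin 1 and to 14 with the replicate block. Irf1, a transcription factor of the interferon response, had 97.1, 101 and 192 CPM in chronic imeglimin libraries, against 144, 114 and 159 CPM in chronic controls. It had 55.8, 36.1 and 45.9 CPM in acute imeglimin libraries, against 152, 132 and 128 CPM in acute controls. The chronic groups overlapped and the acute imeglimin libraries lay below every acute control. The interaction was 1.49 ± 0.31 (edgeR adjusted p = 0.00453). Ifit1bl1 had an interaction of 2.79 ± 0.62 (edgeR adjusted p = 0.00626). Mx1, an antiviral GTPase, went the other way, with -0.23 ± 0.31 in chronic and 2.58 ± 0.33 in acute colon (-2.81 ± 0.45, edgeR adjusted p = 0.000779).

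Lrat, which makes retinyl esters, had 3.69, 7.73 and 0.962 CPM in chronic imeglimin libraries, against 1.54, 5.43 and 2.19 CPM in chronic controls. It had 3.46, 2.40 and 1.68 CPM in acute imeglimin libraries, against 20.7, 19.6 and 22.5 CPM in acute controls. The chronic values overlapped at the level of acute imeglimin, and acute controls were the highest, with an interaction of 3.50 ± 0.74 (edgeR adjusted p = 0.00465). Sesn1, a stress sensor that restrains mTORC1, stood at 0.083 ± 0.096 in chronic and -1.20 ± 0.098 in acute colon (1.28 ± 0.14, edgeR adjusted p = 3.33e-05). Ankrd37 stood at -0.34 ± 0.30 in chronic and -2.85 ± 0.32 in acute colon (2.51 ± 0.43, edgeR adjusted p = 0.00115). Grin3a, a glutamate receptor subunit, had 2.86 ± 0.32 and Cyp2d13, a cytochrome P450, had 2.87 ± 0.42 (edgeR adjusted p = 5.24e-05 and 0.000429). Txnip, which restrains glucose uptake, had -0.47 ± 0.16 in chronic and -1.30 ± 0.16 in acute colon, and its interaction of 0.84 ± 0.22 (edgeR adjusted p = 0.0173) was lost without acute imeglimin 2 or acute control 1. For the glucose transporter Slc2a1 and for proglucagon, Gcg, the interaction was not called (-0.37 ± 0.17 and -0.30 ± 0.26, edgeR adjusted p = 0.159 and 0.472).

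The 167 reversed genes were split evenly, with 83 (0.429% of all tested) higher in chronic and lower in acute colon and 84 (0.434%) lower in chronic and higher in acute colon. Each fit without 1 library has a smaller group, and the part of that in the lower counts was not tested. The count of reversed genes was lower without any 1 of the 12 libraries, at most 163. It was 59 without chronic control 3, 84 without chronic imeglimin 2, 97 without chronic control 2 and 104 without chronic control 1, and without acute control 2 the 83 became 54. With the replicate block 123 genes were reversed. Of the 167 genes 24 remained reversed without each of the 12 libraries, and 22 of these also in the 6 other settings tried. The genes below were named by the size of the interaction, which is also the value given for them. Stard4, CYTB and ND6 were named because they were among the 22, a choice made after seeing the values.

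Apob, the structural protein of chylomicrons, had 276, 270 and 492 CPM in chronic imeglimin libraries, against 176, 149 and 172 CPM in chronic controls. It had 134, 97.3 and 106 CPM in acute imeglimin libraries, against 236, 179 and 197 CPM in acute controls. Imeglimin was above every control in chronic colon and below every control in acute colon. The log2 fold change was 1.06 ± 0.19 in chronic (edgeR adjusted p = 0.00238) and -0.86 ± 0.19 in acute colon (edgeR adjusted p = 0.00252), an interaction of 1.92 ± 0.27 (edgeR adjusted p = 0.000347). Fgfbp1, which carries fibroblast growth factors, had 46.5, 58.9 and 57.1 CPM in chronic imeglimin libraries, against 23.3, 32.7 and 23.7 CPM in chronic controls. It had 62.4, 66.8 and 60.5 CPM in acute imeglimin libraries, against 104, 97.8 and 80.0 CPM in acute controls. The groups did not overlap in either experiment, with imeglimin higher in chronic and lower in acute colon (1.03 ± 0.13 in chronic and -0.57 ± 0.13 in acute colon). The interaction was 1.60 ± 0.18 (edgeR adjusted p = 6.27e-05).

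Within the sterol genes, Stard4, which moves cholesterol through the cytosol, had 233, 280 and 206 CPM in chronic imeglimin libraries, against 134, 190 and 157 CPM in chronic controls. It had 157, 135 and 133 CPM in acute imeglimin libraries, against 255, 230 and 238 CPM in acute controls. Both pairs were separate, in opposite order, at 0.59 ± 0.12 in chronic and -0.77 ± 0.12 in acute colon (1.35 ± 0.17, edgeR adjusted p = 0.00014). Insig1, which holds SREBP precursors in the endoplasmic reticulum, stood at 1.01 ± 0.21 in chronic and -0.58 ± 0.21 in acute colon (edgeR adjusted p = 0.0398). Its reversal was lost without chronic control 1, acute imeglimin 1 or 3, or any acute control, and with no filter on low counts. The arrestin-like Arrdc3 stood at 0.83 ± 0.21 in chronic and -1.18 ± 0.22 in acute colon (2.01 ± 0.30, edgeR adjusted p = 0.000483), and the mitotic kinase gene Mastl at 1.01 ± 0.25 in chronic and -1.23 ± 0.25 in acute colon (2.23 ± 0.36, edgeR adjusted p = 0.000741). Nat2, an arylamine acetyltransferase, stood at 0.56 ± 0.14 in chronic and -1.29 ± 0.14 in acute colon (1.85 ± 0.20, edgeR adjusted p = 3.14e-05). The reversal was lost without chronic imeglimin 1, chronic control 1 or chronic control 2 for Arrdc3, without chronic imeglimin 2, chronic control 1 or chronic control 3 for Mastl, and without chronic imeglimin 2 or chronic control 1 for Nat2.

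Among genes that were lower in chronic and higher in acute colon, Jmjd6, an oxygenase of nuclear proteins, had 25.6, 20.7 and 23.0 CPM in chronic imeglimin libraries, against 30.4, 35.7 and 36.5 CPM in chronic controls. It had 67.5, 72.3 and 72.1 CPM in acute imeglimin libraries, against 20.8, 25.6 and 28.7 CPM in acute controls. No groups overlapped, and the step was larger in acute colon (-0.57 ± 0.12 in chronic and 1.50 ± 0.12 in acute colon). The interaction was -2.06 ± 0.17 (edgeR adjusted p = 5.76e-06). Tsc22d2 had 23.9, 26.8 and 20.5 CPM in chronic imeglimin libraries, against 33.0, 38.5 and 36.5 CPM in chronic controls. It had 56.5, 71.7 and 57.9 CPM in acute imeglimin libraries, against 24.7, 26.4 and 31.8 CPM in acute controls. It reversed in the same order as Jmjd6, with an interaction of -1.76 ± 0.18 (edgeR adjusted p = 2.37e-05). Osgin1, a target of NRF2, stood at -0.44 ± 0.11 in chronic and 1.29 ± 0.11 in acute colon (-1.73 ± 0.15, edgeR adjusted p = 8.35e-06), a reversal lost without chronic imeglimin 1 or chronic control 3.

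Sgk1, a kinase induced by corticosteroids that raises sodium uptake, had 125, 83.8 and 154 CPM in chronic imeglimin libraries, against 267, 186 and 299 CPM in chronic controls. It had 187, 140 and 227 CPM in acute imeglimin libraries, against 60.6, 45.9 and 118 CPM in acute controls. The groups were separate in both experiments, yet the chronic fall lay close to the threshold (edgeR adjusted p = 0.0446), and the reversal was lost without 7 of the 12 libraries while the interaction of -2.36 ± 0.47 (edgeR adjusted p = 0.00305) was kept without each of them. Plk3, a stress kinase among the p53 targets, stood at -0.80 ± 0.26 in chronic (edgeR adjusted p = 0.0497) and 2.51 ± 0.27 in acute colon, an interaction of -3.31 ± 0.37 (edgeR adjusted p = 5.38e-05). Its reversal was lost without 10 of the 12 libraries, with the replicate block, with RLE scaling and with no filter. Bhlha15, a factor of secretory cells that pancreatic acinar cells also express, had 4.76, 6.00 and 18.9 CPM in chronic controls, where chronic control 3 is the library with acinar markers. Without chronic control 3 or chronic imeglimin 3 it was not reversed. The poliovirus receptor Pvr, the tubulin ligase-like Ttll3, Exoc3l4 and Ly6g5b completed the named genes of this direction, with interactions of -1.89 ± 0.22, -2.25 ± 0.27, -2.39 ± 0.30 and -2.19 ± 0.38. Gcnt4, Mtmr7 and Rdh1 completed those of the other direction, with 2.07 ± 0.35, 1.64 ± 0.18 and 2.40 ± 0.57. Without 1 library at a time the reversal was lost for Pvr in 4 of 12 cases, for Ttll3 in 8, for Exoc3l4 in 6, for Ly6g5b in 1, for Gcnt4 in 2, for Mtmr7 in 4 and for Rdh1 in 10. The reversal of Ttll3 was also lost with the replicate block and with no filter, that of Exoc3l4 with no filter and that of Rdh1 with no filter and with 12 libraries only.

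**Figure D5:**
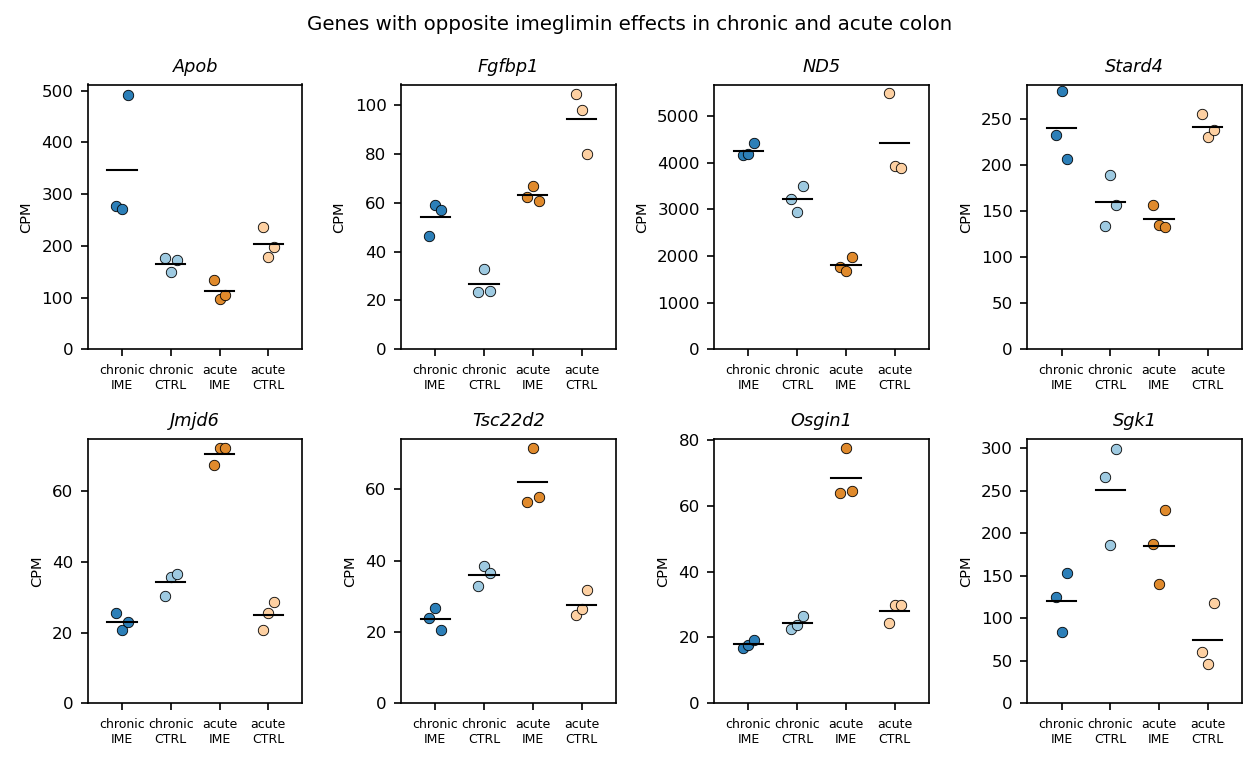
CPM in each library of chronic imeglimin, chronic control, acute imeglimin and acute control colon for 8 reversed genes (IME, imeglimin; CTRL, control; points, libraries; bars, means of 3). The first 4 genes are higher with imeglimin in chronic and lower in acute colon, and the last 4 the opposite.

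Most transcripts of the mitochondrial genome had a higher imeglimin effect in chronic than in acute colon. Of 13 protein-coding mitochondrial genes 9 had a higher effect in chronic colon and 0 a lower one, beside 8.72% and 7.56% of all genes. In chronic colon 12 rose, beside 8.43% of all genes, and in acute colon 6 fell, beside 16.9%. The 5 reversed were ND5, ND6, ND4L, CYTB and ATP8, beside 0.862% of all genes. The reversal of ND4L was lost without any 1 of 5 chronic libraries and that of ATP8 without chronic control 1. The 9 were 10 without chronic control 3, 7 with the replicate block and 12 by DESeq2. ND5, a proton-pumping subunit of complex I, had 4158, 4199 and 4419 CPM in chronic imeglimin libraries, against 3229, 2941 and 3512 CPM in chronic controls. It had 1770, 1678 and 1975 CPM in acute imeglimin libraries, against 5490, 3925 and 3882 CPM in acute controls. The groups were separate in opposite order, with the wider gap in acute colon. The log2 fold change was 0.40 ± 0.12 in chronic (edgeR adjusted p = 0.0406) and -1.29 ± 0.12 in acute colon (edgeR adjusted p = 2.08e-06), an interaction of 1.69 ± 0.17 (edgeR adjusted p = 2.39e-05). Its chronic rise, and so the reversal, was lost without any of the 6 chronic libraries or acute imeglimin 3, with 12 libraries only and with the replicate block.

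CYTB, the cytochrome b of complex III, stood at 0.35 ± 0.076 in chronic and -0.30 ± 0.076 in acute colon (0.65 ± 0.11, edgeR adjusted p = 0.000925). ND6 stood at 0.62 ± 0.15 in chronic and -0.91 ± 0.15 in acute colon (1.54 ± 0.21, edgeR adjusted p = 0.000269). ND6 is encoded on the strand opposite to ND5 and CYTB, and ATP8 and ND4L share bases with ATP6 and ND4. No source used here states if counting respected strand, so the assignment of reads among these neighbours is uncertain. The libraries were made by poly(A) selection, and its part in the mitochondrial values was not tested.

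In the small intestine of the chronic experiment the imeglimin effect was called for 200 of 17295 genes in the proximal segment (1.16%), 5 of 17940 in the middle segment (0.0279%) and 4 of 18233 in the distal segment (0.0219%). Each segment was fitted alone, with 3 control, 3 imeglimin and 3 metformin libraries and its own filter, scaling and spread. The numbers called in a segment and in colon therefore come from fits of different size. Tfrc had a log2 fold change of 0.0014 ± 0.11 in the proximal segment, 0.18 ± 0.19 in the middle one and -0.17 ± 0.29 in the distal one. Hmgcs1 had 0.21 ± 0.084 in the proximal segment, -0.13 ± 0.11 in the middle one and -0.44 ± 0.21 in the distal one. None of these 6 values was called (edgeR adjusted p = 0.237 to 0.998), and their difference from colon was not tested.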

How the data were processed

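Bulk RNA-seq of mouse colon was analysed from 2 tables, acute and chronic, of whole-number read counts per gene as the authors deposited them. Per the labels' protocols, total RNA came from RNeasy columns and the kit was TruSeq Stranded mRNA. FastQC, Trimmomatic, StringTie and HISAT2 appear in the submitters' processing notes, as do mm10 and GRCm39 with no role stated. No source used here states if counting respected strand. The tables were deposited separately and joined by symbol, and it cannot be told from them if they were also counted separately. Of 45777 symbols 45751 were joined, since 26 in the chronic table had become dates, and no column was left unused (0).

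The 18 colon libraries, metformin included for the estimate of spread, the filter and the scaling, were fitted together with edgeR 4.0.16 (R 4.3.3, TMM scaling, filterByExpr, quasi-likelihood F test, Benjamini-Hochberg over 19369 genes, threshold 0.05). With 12 libraries only, 19122 genes were tested. The small intestine segments were each fitted apart, from their own counts and by the same steps. Levels are CPM scaled by library total and TMM factor. Log2 fold changes are given ± SE. Every pair of replicates differed beyond sampling noise (chi-square per gene of 13.6 to 49.0), so each library was used as 1 sample. The 12 libraries compared held 31606797 to 44373717 counts. The chi-square is a mean over genes, and counting error was not compared with the spread between replicates at separate expression levels.

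Named genes were the 10 reversed genes each way with the largest interactions and the 8 largest interactions per direction among genes called in 1 experiment alone. The 2 smallest p per list and a fixed set were added, and the text gives a part. All but the fixed set and the genes named after their values were seen had to reach 5 CPM in a group. Only the reversed genes and those called in 1 experiment alone also had to show no overlap between groups where an effect was called. The members, 41 pathway lists and 17 marker lists were chosen with earlier results of these data known. The labels' batch tag equals the replicate number, so by the tag the numbers pair libraries within an experiment. Deviations of same-numbered imeglimin and control libraries correlated at a mean of 0.0666 in chronic and -0.0354 in acute colon, against -0.0334 and 0.0176 for other pairs. Deviations were taken from the mean of each group, which ties the values for other pairs to those for same-numbered pairs. The values for other pairs are therefore no separate comparison and cannot decide if the numbers pair libraries. Alternatives were RLE scaling, DESeq2 1.42.0, no filter, 12 libraries only, the replicate block, at least 5 CPM and leaving out each library. Single-cell matrices of the series were not used here. Some genes are not reported here.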

Additional observations from a re-analysis of the deposited data

Results flagged for a closer look

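For 20 genes the imeglimin effect differed between chronic and acute colon by the interaction test, with both effects called in opposite directions. They were named by the size of the interaction, the value given here. The 10 higher in chronic and lower in acute colon had interactions, chronic minus acute on the log2 scale, of 2.40 for Rdh1, 2.23 for Mastl, 2.07 for Gcnt4, 2.01 for Arrdc3, 1.92 for Apob, 1.85 for Nat2, 1.69 for ND5, 1.64 for Mtmr7, 1.60 for Insig1 and 1.60 for Fgfbp1. The 10 lower in chronic and higher in acute colon had -3.42 for Bhlha15, -3.31 for Plk3, -2.39 for Exoc3l4, -2.36 for Sgk1, -2.25 for Ttll3, -2.19 for Ly6g5b, -2.06 for Jmjd6, -1.89 for Pvr, -1.76 for Tsc22d2 and -1.73 for Osgin1. Of the 20, Apob, Fgfbp1, Jmjd6 and Tsc22d2 stayed reversed without each of the 12 libraries. Groups of 3 libraries were not searched for single outlying values. In chronic controls Bhlha15 was highest in the library with pancreatic acinar markers, and the part of those cells in its value was not tested beyond leaving that library out.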

How the results depend on the processing

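Stability was tried for 172 named interactions. Genes named after their values were seen and not called, Hoxb13 and Hoxb6 among them, were left out. Direction was kept by all 172 in every setting tried. Of these 170 were called, and 42 of the 170 lost the call in at least 1 setting. Of the other 2, Gcg and Slc2a1, Slc2a1 was called without acute imeglimin 1. The count of genes with a higher effect in chronic colon was 1689 and ranged from 1152 to 1496 on leaving out 1 library, and the count with a lower effect was 1465 and ranged from 957 to 1707. It was 957 without chronic control 3. Reversed genes numbered 83 (higher in chronic) and 84 (lower in chronic), and ranged from 29 to 67 and from 30 to 103 on leaving out 1 library. They were 125 and 128 with DESeq2 and 53 and 52 with no filter beyond 1 read, which tests 29432 genes. With the replicate block, 1445 genes had a higher and 1177 a lower effect in chronic colon and 67 and 56 were reversed. RLE scaling gave 1564 higher and 1485 lower, 12 libraries only 1732 and 1521, at least 5 CPM 1716 and 1514 and DESeq2 1940 and 1784. At an unadjusted p under 0.05, 5858 genes differed. Tables deposited separately, and possibly counted separately, were set against each other in every interaction. The 3 libraries a group limit the smallest difference that can be called.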
